A study of Mus musculus with 2 samples.

Results

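The 7 genes described here mark or serve the renin cell: the renin genes Ren1 and Ren2, the juxtaglomerular cell genes Akr1b7, Olfr78 and Crip1, and the substrate and converting enzyme of the renin cascade, Agt and Ace. They were picked by gene name, as genes of a lineage known to depend on Rbpj, after Ren1 and Akr1b7 had been seen lower in the mutant RNA, so every ratio of these 7 is given as a description with no test. Each gene had 1 probe of 60 bases printed in 4 spots, which makes 7 of the 39429 probes on the array. All 7 passed the filter on dim probes, and every spot of the 7 probes was well above background in all 4 RNAs.

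Total RNA of mouse ureters (NMRI) at postnatal day 4 was compared on 2 arrays of 2 colours. Array 1 held a pair labelled female and array 2 a pair labelled male, with the dyes exchanged. The mutant RNA, called Rbpj-cKO, came from Tbx18(cre/+);Rbpj(fx/fx) pups, in which the Tbx18 locus drives Cre in the mesenchyme around the ureter, and the control RNA from Tbx18(+/+);Rbpj(fx/n.d.) pups, whose second Rbpj allele was not determined. The mutant pups thus carried the cre allele of Tbx18, which the controls did not. How many animals went into each RNA is not stated in the labels. All SDs are between the 2 pairs (n = 2), whose number limits the precision. Sex label, dye orientation and pair changed together and cannot be told apart.

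For the 21143 genes tested, each value is a log2 ratio, mutant (Rbpj-cKO) over control, after loess normalization within the array. The targeted gene Rbpj stood at -0.92 on array 1 and -1.10 on array 2, a mean of 49.7% of control, and limma did not call it (adjusted p = 0.0873). With 2 arrays, 0 calls in a list therefore do not show that its genes were unchanged. The position of its probe relative to the floxed exons was not worked out. On array 1, labelled female in both channels, the Y-linked genes Ddx3y and Eif2s3y had ratios of 4.23 and 4.26. The Rbpj-cKO RNA there thus does not match its sex label. Ddx3y had levels of 11.3 in the Rbpj-cKO and 7.08 in the control RNA of array 1, and of 12.9 and 13.5 on array 2. On array 1, genotype and Y-linked signal therefore differed together, and their parts in its ratios cannot be told apart. On array 2, hepatocyte markers had a median ratio of -2.66, against 0.50 on array 1, and their summed normalized signal was 63598 in the control RNA of array 2 and 9115 to 12790 in the other 3 RNAs. The values of the members are therefore given for each array. In bulk RNA, fewer cells of a type and less RNA per cell cannot be told apart.

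Renin is an aspartyl protease that cuts angiotensinogen to angiotensin I, which angiotensin-converting enzyme turns into angiotensin II, a peptide that constricts vessels and raises salt retention. In the adult kidney renin is made by juxtaglomerular cells of the afferent arteriole, whereas in the fetus and newborn renin cells lie along many renal arteries. They belong to the mural cell lineage of vessels, can turn into smooth muscle cells and pericytes, and in the kidney need Rbpj, the DNA-binding partner of Notch, to keep renin expression.

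The 2 sequences below show the promoters of the genes whose lower values prompted the choice. They run 5′ to 3′ and cover the 250 bases before the start of transcription (RefSeq, GRCm38.p6, plus strand), at chr1:133350424-133350673 for Ren1 and chr6:34412112-34412361 for Akr1b7, with matches to the searched motifs in capitals.
Ren1: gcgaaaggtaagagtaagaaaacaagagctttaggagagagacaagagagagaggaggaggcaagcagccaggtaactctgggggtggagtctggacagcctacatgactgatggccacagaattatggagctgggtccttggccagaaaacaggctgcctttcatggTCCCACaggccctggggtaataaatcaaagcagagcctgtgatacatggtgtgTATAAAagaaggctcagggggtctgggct
Akr1b7: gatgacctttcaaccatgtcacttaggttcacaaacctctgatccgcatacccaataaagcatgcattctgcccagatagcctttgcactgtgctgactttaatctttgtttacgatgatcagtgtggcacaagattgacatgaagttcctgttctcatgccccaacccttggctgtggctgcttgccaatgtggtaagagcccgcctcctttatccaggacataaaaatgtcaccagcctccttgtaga

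In the Ren1 promoter, GTGGGA, the first 6 letters of the Rbpj consensus GTGGGAA, matched on the minus strand at 82 to 77 bases before the start site. The TATA box sequence TATAAA matched at 29 to 24 bases. The Akr1b7 promoter held none of the 5 motifs, which were searched on both strands. The others were the full consensus GTGGGAA, its last letters TGGGAA, and the cyclic AMP element TGACGTCA. The first and last 6 letters of the consensus overlap it and each other. Of the 32851 promoter windows of this length, 18.8% held the first 6 letters of the consensus, 21.6% the last 6, 5.42% the whole of it, 12.4% the TATA box sequence and 1.55% the cyclic AMP element. Of the other members with a promoter entry, Agt and the first start site of Ace held TATAAA and Crip1 held TGGGAA.

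Both renin genes had less signal in the mutant RNA than in the control RNA of either pair. Ren1, the renin gene that all mouse strains carry, had a normalized log2 level of 10.10 in the control and 9.37 in the Rbpj-cKO RNA of array 1, and of 10.41 and 9.10 on array 2. Both control RNAs thus lay above both Rbpj-cKO RNAs, as they did for 20.8% of all genes in the same direction. The log2 ratio of Ren1 was -0.73 for the first pair and -1.32 for the second (mean -1.02 ± 0.42, SD, n = 2), which is 60.3% and 40.2% of the control level. Its 4 spots gave -0.77 to -0.67 on array 1 and -1.40 to -1.28 on array 2, so the spread between spots was smaller than the difference between the pairs. On array 2 the normalized level of the control RNA was higher than on array 1 by 0.31 and that of the Rbpj-cKO RNA lower by 0.27 (-0.27). Each genotype was in the other dye there, so these shifts cannot be told apart from dye. The probe lies at chr1:135250782-135250841 (mm9, as given by the files) and, as the probe named for Ren1, is shown here 5′ to 3′.
Ren1 probe: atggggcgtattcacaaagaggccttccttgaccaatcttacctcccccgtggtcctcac

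Ren2, the duplicated renin gene that only some mouse strains carry, had the lowest ratio of the 7. Its level was 11.5 in the control and 10.6 in the Rbpj-cKO RNA of array 1, and 12.0 and 10.4 on array 2, again with no overlap between the genotypes. Its log2 ratio came to -0.93 for the first pair and -1.61 for the second (mean -1.27 ± 0.48, SD, n = 2), or 52.4% and 32.7% of control. Ren1 and Ren2 are near-identical copies. The longest run their 2 probes share is 6 bases, and no other probe on the array shares 20 bases with either. The probes lie at different transcript positions (202 for Ren1 and 1477 for Ren2), so this cannot show whether each binds the transcript of the other gene. Such binding was not tested, and the Ren2 probe is unmapped in mm9. The 2 genes are therefore not independent readings of renin.

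Of the substrate and the converting enzyme of the renin cascade, neither stood apart between the genotypes. Agt encodes angiotensinogen, the substrate of renin, made mainly by liver and also by fat and proximal tubule. Its level was 8.58 in the control and 8.65 in the Rbpj-cKO RNA of array 1, and 9.03 and 8.81 on array 2, so the genotypes overlapped. Its log2 ratio came to 0.07 for the first pair and -0.22 for the second (mean -0.08 ± 0.21, SD, n = 2). The negative ratio of Agt arose in the pair in which the hepatocyte markers were also lower (median -2.66), and their part in it was not tested. Ace, the converting enzyme, made by endothelium and proximal tubule, had log2 ratios of -0.04 and -0.01 (mean -0.02 ± 0.02). Its probe was dim, with 14.7% of the genes tested dimmer, and its levels lay between 7.56 and 7.71 in all 4 RNAs. The probe of Agt lies at chr8:127083142-127083201 and that of Ace at chr11:105850398-105850457 (mm9).

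The markers of juxtaglomerular cells divided. Akr1b7, an aldo-keto reductase enriched in renin cells and also made in adrenal cortex, vas deferens and fat, had levels of 9.76 in the control and 9.15 in the Rbpj-cKO RNA of array 1, and of 9.80 and 8.80 on array 2. By these levels, which cross the exchanged dyes, the 2 control RNAs were nearly level and the Rbpj-cKO RNA was lower on array 2. That put its log2 ratio at -0.61 for the first pair and -0.99 for the second (mean -0.80 ± 0.27, SD, n = 2), or 65.6% and 50.2% of control. On array 1 it lay just past 1.5-fold (0.58 on the log2 scale) and 1 of its 4 spots was dropped as an outlier. The probe lies at chr6:34372905-34372964 (mm9).

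Olfr78, an olfactory receptor that responds to short-chain fatty acids and is found in the renal juxtaglomerular apparatus and in vascular smooth muscle, had the most even ratio of the 4 lower members. Its level was 11.0 in the control and 10.3 in the Rbpj-cKO RNA of array 1, and 11.1 and 10.3 on array 2. Its log2 ratios were -0.76 and -0.80 (mean -0.78 ± 0.03, SD, n = 2), or 59.1% and 57.4% of control. The pairs differed by less than the spread of the 4 spots, which ran from -0.82 to -0.67 on array 1 and from -0.86 to -0.74 on array 2. The probe lies at chr7:109889333-109889392 (mm9).

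Crip1, a small LIM-domain protein found in renin cells and in smooth muscle and many other cells, was bright, with 88.6% of the genes tested dimmer. Its levels were 14.8 in the control and 14.6 in the Rbpj-cKO RNA of array 1, and 14.9 in both RNAs of array 2. Its log2 ratios were -0.17 and 0.00 (0.0031 before rounding; mean -0.08 ± 0.12, SD, n = 2). The probe lies at chr12:114392029-114392088 (mm9).

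**Figure D1:**
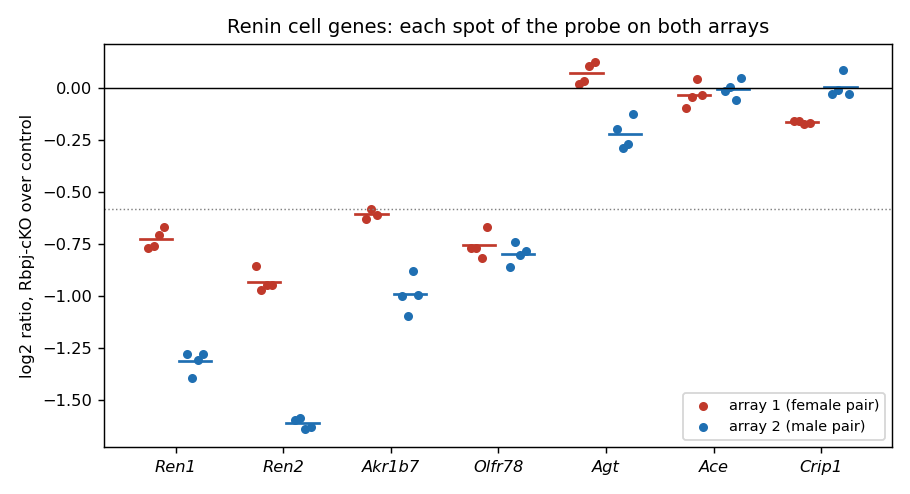
Log2 ratio of Rbpj-cKO over control for each spot of the 7 probes (points; outlier spot of Akr1b7 left out) and their mean (line) on array 1 (red) and array 2 (blue); the dotted line marks 1.5-fold lower. Ren1, Ren2 and Akr1b7 lie lower on array 2, Olfr78 is alike on both, and Agt, Ace and Crip1 lie near 0.

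**Figure D2:**
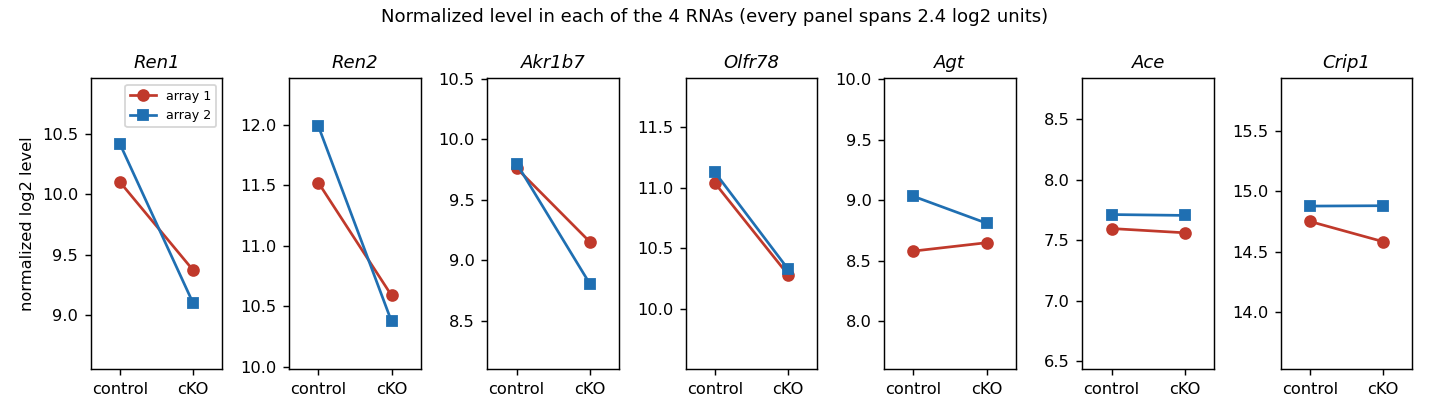
Normalized log2 level of each gene in the control and Rbpj-cKO RNA of array 1 (red circles) and array 2 (blue squares), 1 RNA per point. The controls lie above the Rbpj-cKO RNAs for Ren1, Ren2, Akr1b7 and Olfr78; levels of different genes are not comparable.

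Of the 7 genes, 4 (Ren2, Ren1, Akr1b7 and Olfr78, from the lowest mean) were at least 1.5-fold lower on both arrays, beside 0.795% of all genes tested (168 of 21143), and 0 were as much higher, beside 0.402%. Because the choice used this contrast, nothing is read from that count. The 4 stood at ranks 84, 146, 236 and 255 from the lowest mean ratio of all genes. In mean ratio, Akr1b7 and Olfr78, neighbours in this order, differed by less than the SD of Akr1b7, and they changed order between the arrays. Ren1 and Ren2 differed by less than their own SDs, but Ren2 was the lower on both arrays (-0.93 against -0.73, and -1.61 against -1.32). The other 3 lay at ranks 5450 (Crip1), 5704 (Agt) and 9059 (Ace), and among them Agt and Crip1 had opposite signs on the 2 arrays, as 38.5% of all genes did.

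Ren1, Ren2, Akr1b7 and, with a difference of only -0.04, Olfr78 were lower on both arrays and further on array 2. So were 9.55% of all genes tested, counted with no minimum difference. With 1 pair on each array, this difference has no replicate check. Median ratios, in array order, were also lower on array 2 for smooth muscle (-0.10 and -0.34) and hepatocyte markers (0.50 and -2.66). The same held for proximal tubule (0.39 and 0.26), urothelial (0.45 and 0.08) and chromaffin cell markers (0.22 and -0.08). Medians were lower on array 1 for pericyte (-0.40 and -0.33) and endothelial markers (-0.22 and -0.10). They were so too for podocyte (-0.02 and 0.14), leukocyte (-0.11 and 0.06) and steroidogenic markers (-0.17 and -0.01). The part of these cell types in the difference between the arrays was not tested. Adipocyte markers were lower on array 1 as well, with medians of -2.74 and -1.09 and 11 of 12 further there. Ucp1, the heat-producing protein of brown fat, was the exception and had -2.74 on both arrays. It was also the only gene that limma called across the array (1 gene, or 0.00473%, adjusted p = 0.0248). The part of fat-derived RNA in the ratio of Akr1b7, a gene also made in fat, was not tested.

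**Figure D3:**
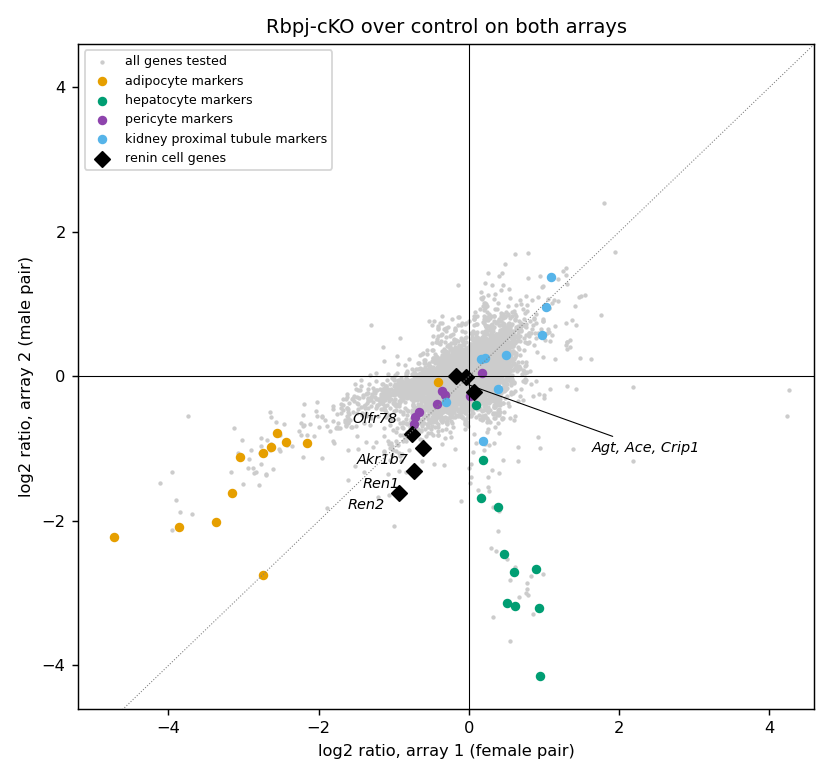
Log2 ratio of Rbpj-cKO over control on array 1 (horizontal) against array 2 (vertical) for all 21143 genes tested (grey), with the 7 genes (black diamonds) and 4 marker lists in colour; the dotted line marks equal ratios. Ren1, Ren2 and Akr1b7 lie below the line, adipocyte markers mostly above it, and hepatocyte markers lie near the bottom, lower on array 2 and not on array 1.

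By distance in the plane of the 2 array ratios, among 15592 named genes, the 5 closest to Ren1 were Akr1c18, Itih4, Rbpj itself, Pgam2 and C3, at distances from 0.20 to 0.33 log2 units. Akr1b7 lay at 0.34 with 5 genes closer, Ren2 at 0.36 with 9, and Olfr78 at 0.52 with 29. Agt, Crip1 and Ace had 2781, 4860 and 6530 genes closer to Ren1. The 5 closest to Akr1b7 were Zfhx4, Mc4r, Clstn2, Fzd9 and Pdzrn4, at 0.03 to 0.17. Olfr78 followed at 0.24 with 9 genes closer, Ren1 lay at 0.34 with 36, and Ren2 at 0.70 with 321. Agt, Crip1 and Ace had 2934, 4640 and 6432 genes closer to Akr1b7. Ren1 and Akr1b7 were seen lower before the choice, so nothing is read from their closeness. With 2 arrays this likeness compares 2 values per gene.

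The other genes of the renin-angiotensin system lay on both sides of 0. Of 24 further genes, 23 were measured and 1 (Bdkrb1) was not above background. Limma called 0 lower and 0 higher over all genes (smallest adjusted p = 0.169, and 4 genes at an unadjusted p under 0.05, as were 14.0% of all genes tested), 7 were lower on both arrays and 9 higher, against 29.8% and 31.7% of all genes. The median ratios were -0.06 on array 1 and 0.06 on array 2, beside -0.01 and 0.01 over all genes tested. Among the receptors, Agtr1a, the main angiotensin II receptor of vessels, had ratios of -0.44 and -0.30 (mean -0.37 ± 0.10, adjusted p = 0.216 in limma). Agtr2, the second angiotensin II receptor, had 0.28 on both arrays (adjusted p = 0.257 in limma). Among the peptidases, Lnpep, the angiotensin IV binding aminopeptidase, had -0.53 and -0.22, and Ctsg, a protease of myeloid cells that can form angiotensin II, 0.41 and 0.46, both uncalled (adjusted p of 0.277 and 0.169 in limma).

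Genes that relay signals to the renin cell or regulate renin also went both ways. Of 23 listed, 22 were measured (Casr was not above background), 8 were lower on both arrays and 8 higher, beside 29.8% and 31.7% of all genes. Limma called 0 (smallest adjusted p = 0.207), with 7 genes at an unadjusted p under 0.05, beside 14.0% of all genes. Adrb1, the beta-1 adrenergic receptor through which sympathetic nerves raise renin release, had -1.50 on array 1 and -0.17 on array 2 (mean -0.84 ± 0.94). Nr1h3, the nuclear receptor LXR alpha that can activate the renin gene, had -1.62 and -0.44 (mean -1.03 ± 0.83). In these 2 genes array 1 held the larger difference, as in 11 of the 12 adipocyte markers, whose part in it was not tested. Of all 21143 genes tested, 4274 were likewise lower on both arrays and further on array 1. Ptgir, the prostacyclin receptor, had -0.53 and -0.33, and Ptger2, a prostaglandin E2 receptor, 0.31 and 0.45.

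Of the genes listed as relatives of the members by family or ligand, 1 (Ffar2) was at least 1.5-fold lower on both arrays, beside 0.795% of all genes. All 10 were measured, and 5 were lower and 3 higher on both arrays, beside 29.8% and 31.7% of all genes. Limma called 0 (smallest adjusted p = 0.230), with 2 genes at an unadjusted p under 0.05, beside 14.0% of all genes. Ffar2, a receptor for short-chain fatty acids like Olfr78 but of another family, had -1.74 on array 1 and -0.64 on array 2 (mean -1.19 ± 0.78). Array 1 held its larger difference, as in 11 of the 12 adipocyte markers, whose part in it was not tested, and as in 4274 of all 21143 genes. Olfr558, an olfactory receptor, had -0.19 and -0.20. Of the LIM-domain proteins related to Crip1, Crip2 had -0.27 and -0.05, Crip3 0.33 and 0.02, and Csrp1 -0.07 and -0.24. Of the aldo-keto reductases, Akr1b3 had opposite signs, 0.30 on array 1 and -0.15 on array 2, Akr1b8 had -0.00 (-0.0045) and -0.12, and Akr1b10 had 0.12 and 0.18. Those 3 were added to the named genes after their values were seen.

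**Figure D4:**
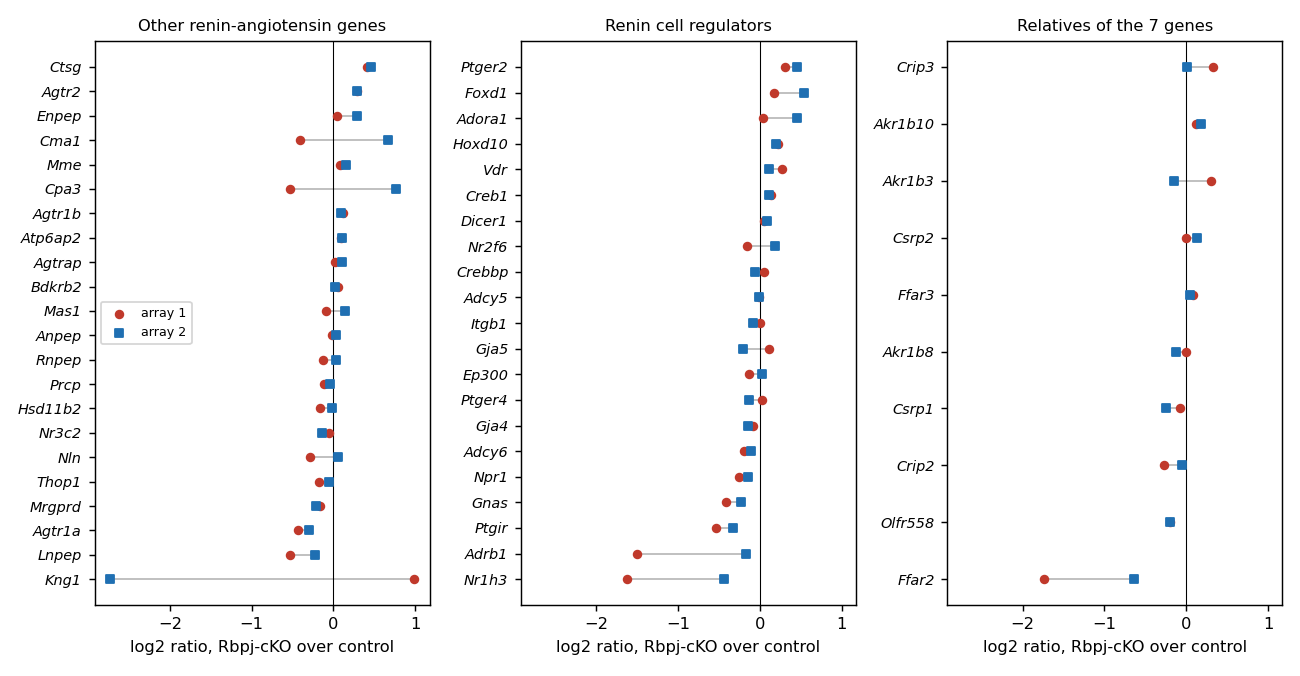
Log2 ratio of Rbpj-cKO over control on array 1 (red circles) and array 2 (blue squares) for measured genes of 3 lists, without those not reported by name, ordered by the mean. Ratios lie on both sides of 0 in each list, and Adrb1, Nr1h3 and Ffar2 reach -1.50, -1.62 and -1.74 on array 1.

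Markers of cell types that make renin or Akr1b7, or lie beside them, are given here with the members. Of 8 pericyte markers, 6 were lower on both arrays and 1 higher, with medians of -0.40 and -0.33, all 6 further on array 1, and summed normalized signals of 93096 and 86963 in the Rbpj-cKO RNAs against 113407 and 108866 in the controls. Kcnj8, a potassium channel subunit, had -0.73 and -0.66, and Pdgfrb, the PDGF receptor of mural cells, -0.72 and -0.56, while Rgs5, a pericyte gene also found in renin cells, had 0.02 and -0.28 (adjusted p from 0.107 to 0.657 in limma). Of 10 endothelial markers, 7 were lower on both arrays and 1 higher, with medians of -0.22 and -0.10. Of 9 smooth muscle markers, 6 were lower on both arrays and 0 higher, with medians of -0.10 and -0.34 and sums of 716967 and 644119 against 726203 and 833363. Of 9 measured proximal tubule markers, 6 were higher on both arrays, among them Kap (1.10 and 1.38) and Lrp2 (1.03 and 0.96), and 1 lower. Their sums were 26864 and 26965 against 31240 and 32881, and the lower marker, the water channel Aqp1 (-0.31 and -0.35), was the brightest of the 9, with levels of 14.5 to 14.9 where the other 8 lay between 6.92 and 10.2. Of 7 measured steroidogenic markers, 4 were lower on both arrays and 1 higher, with medians of -0.17 and -0.01 and sums of 31213 and 32402 against 36394 and 31559. The brightest of the 7 was Fdx1, a mitochondrial ferredoxin, with levels of 14.8 to 15.1, and the other 6 lay between 6.60 and 9.78. The adrenal cortex enzymes Cyp11b1 and Cyp11b2 and Hsd3b1 were not above background, and Cyp21a1 had -0.00 and -0.01 (-0.0044 and -0.0082). Limma called 0 genes in these 5 lists, and 6 pericyte, 3 endothelial, 4 smooth muscle, 6 proximal tubule and 1 steroidogenic marker had an unadjusted p under 0.05, beside 14.0% of all genes. The shares of all genes lower and higher on both arrays were 29.8% and 31.7%. Lower on both and further on array 1 were 4274 of the 21143 genes tested. The part of pericytes, smooth muscle, kidney tissue and steroidogenic cells in the ratios of Ren1, Ren2, Akr1b7 and Olfr78 was not tested.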

How the data were processed

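The deposited spot values are fluorescence intensities from Agilent Feature Extraction 10.7.3.1, per the submitters' processing notes, with probe coordinates in mm9, per the file headers. The scanner's own ratio column is on a log10 scale (Alexa647 divided by Alexa555), per the file headers. Well-above-background, saturation and outlier flags are other values of the same deposited files. The authors' deposited series table holds a score, and no label or header says how it was made. It was read as signed fold changes of Rbpj-cKO over control (no value lay between -1 and 1; correlation with the scanner log2 ratio 0.777 and 0.686 across probes) and served only as an alternative. Its column medians were 1 on both arrays, and its centring stays unknown.

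Spot means were background-corrected by normexp, using local medians and an offset of 50, then loess-normalized within arrays in limma 3.58.1 (R 4.3.3), with control spots at weight 0. Outlier spots were dropped (3.34% and 3.12%), and 0 gene spots were saturated. Ratios were turned by the channel labels and averaged over spots. The filter kept 28176 probes with over 50% of spots well above background, on each array, in the Rbpj-cKO or in the control channel, and the brightest probe stood for a gene. Names came from RefSeq accessions (GRCm38.p6; 28328 of 39429 probes matched). Levels per RNA are log2 values after Aquantile scaling. Limma (lmFit, eBayes, two-sided) tested all 21143 genes against 0 with Benjamini-Hochberg adjustment at 0.05, on 1 residual degree of freedom raised to 4.35 by the prior. The steps were tested on simulated spots. Members and lists were chosen with earlier results of these data known. Named were the 7 members, up to 5 genes in each of the 3 lists of renin-angiotensin genes, regulators and relatives with the largest mean ratio and one sign on both arrays, and the 5 genes nearest Ren1 and Akr1b7. Ddx3y, Eif2s3y and the single cell type markers named fall outside this rule and were chosen after their values were seen. Of the genes the rule names, 2 are not reported here. Nothing says that the RNAs came from separate litters, so p-values measure only the spread between these pairs. Through the prior, that spread is in part pooled over all genes and not that of the gene alone.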

Additional observations from a re-analysis of the deposited data

Results flagged for a closer look

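Opposite signs on array 1 and array 2, labelled as a female and a male pair, drew attention to 3 genes. Of all genes tested, 38.5% had opposite signs. Agt had 0.07 on array 1 and -0.22 on array 2, a difference of -0.29. Crip1 had -0.17 and 0.00 (0.0031), a difference of 0.17, and its spots on array 2 lay on both sides of 0, from -0.03 to 0.08. Kng1, the kininogen gene, a liver product chosen after its values were seen, had 0.99 and -2.73, a difference of -3.72. It was 1 of 7 with opposite signs among the 23 other renin-angiotensin genes measured. The differences between the pairs were not tested, since each array holds 1 pair, the dyes changed with it, and the Rbpj-cKO RNA of array 1 does not match its sex label. Kng1 moved like the hepatocyte markers (medians 0.50 and -2.66), whose part in it was not tested.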

How the results depend on the processing

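Over the 10 settings of background, normalization, filter, outliers, probes and series table that were compared, reported setting included, the mean log2 ratio ran from -1.10 to -1.02 for Ren1, -1.30 to -1.27 for Ren2, -0.89 to -0.80 for Akr1b7 and -0.80 to -0.76 for Olfr78. These 4 were lower on both arrays in all 10. Leaving out the filter and averaging probes could not move a member, since each has 1 probe that passed. Keeping outlier spots moved only Akr1b7 among the members. Akr1b7 was at least 1.5-fold lower on both arrays in 8, missing it on array 1 with scaling between arrays and with the series table (-0.58 in each). Agt had opposite signs in all 10, Crip1 in 7 and Ace in 4. Genes at least 1.5-fold lower on both arrays numbered 265 with the scanner log ratio, and those higher 245 with it and 154 with the series table. Relatives lower on both arrays numbered 2 with median centring and 3 with the series table. Limma called 0 genes with the scanner log ratio, median centring, scaling between arrays and the series table, and 95 with trend and robust settings. With 1 array left, genes at least 1.5-fold lower numbered 292 to 783 and higher 202 to 258, and renin-angiotensin genes lower 8 to 13 and higher 10 to 15, since 1 array then decides the count. With 1 array limma could not be fitted. No paired analysis was possible because no block could be added: the ratio within each array is already the comparison within a pair. Ace, at 7.64 mean log2 intensity, is the dimmest of the 7 members.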

Other observations

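In the authors' deposited table, read as signed fold changes, Ren1 stood at -1.67 on array 1 and -2.58 on array 2, Ren2 at -1.83 and -3.15, Akr1b7 at -1.50 and -2.10, and Olfr78 at -1.63 and -1.76. The authors' deposited table lists Agt at 1.11 and -1.23, Ace at -1.06 and 1.02, and Crip1 at -1.04 and -1.02.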
